A study of Mus musculus with 6 samples.

Results

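Receptor chains for interleukins, interferons and the gp130 family of cytokines were followed in blood stem and progenitor cells sorted by a reporter of the gene Hes1. The genes were chosen by name, 39 in all, and 35 of them had at least 1 probe set annotated with that symbol, out of 18194 genes measured. The chains Il1rl1, Il2rg, Il11ra1 and Il23r had no probe set under their symbol in the annotation used and were not analysed here. Where a gene had several probe sets, the one with the highest mean log2 intensity over all arrays stood for it.

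The series holds 6 Affymetrix arrays of cells taken from the marrow of 6-week-old mice and sorted as lineage-negative, cKit+ and Sca1+ (LSK), the fraction that contains stem cells and multipotent progenitors. The 3 GFP-positive arrays and the 3 GFP-negative arrays all came from mice of genotype Hes1 GFP/WT, which carry the reporter on 1 allele. Hes1 is a transcriptional repressor switched on by Notch. In each group replicate 1 was female and replicates 2 and 3 were male. The labels do not say where the GFP gate was set, whether animals were pooled or whether the arrays of a group came from separate animals. The p-values therefore describe variation among these particular arrays, part or all of which may be technical.

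Most of these receptors work as pairs of chains, one that recognises the cytokine and one that many cytokines share. The common gamma chain, the common beta chain and gp130 are shared chains of this kind. Receptors built with them signal through Janus kinases and STAT transcription factors. The IL-1 and IL-17 families instead recruit adaptor proteins that lead to NF-kappaB, and interferon and IL-10 family receptors form the class II group. In marrow such receptors let stem and progenitor cells respond to infection and direct them into lineages.

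Values are log2 of the authors' deposited intensities, and a fold change is the GFP-positive mean minus the GFP-negative mean on that scale. The arrays correlated with each other at 0.923 to 0.952 over the probe sets with 1 symbol. Hes1 itself was at 7.36, 7.09 and 7.84 in GFP-positive arrays, against 6.78, 6.79 and 7.10 in GFP-negative arrays, so its array signal overlapped narrowly between the groups sorted on its reporter (0.54 ± 0.24, limma adjusted p = 0.78, exact permutation p = 0.2). Kit, part of the sort gate, lay between 9.69 and 10.51 in GFP-positive arrays and between 10.47 and 10.72 in GFP-negative arrays, and Cd34, a progenitor antigen, between 11.48 and 11.86 in GFP-positive arrays and between 12.28 and 12.43 in GFP-negative arrays. Ly6a, which encodes Sca1, was not measured under that symbol. As a guide to background, the Y-linked genes Uty, Kdm5d and Eif2s3y read 3.42 to 4.69 in the female arrays. Each probe set has its own background, and 8 genes of other organs averaged from 3.16 to 9.51, so a level by itself does not show that a receptor is expressed. Il2ra, Il9r and Osmr averaged at or below 4.69. In sorted bulk samples, fewer cells of a type and less RNA per cell cannot be told apart.

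The clearest pattern was a set of chains that lay lower in GFP-positive cells: Il1r1, Il18rap, Il4ra, Il21r and Il17ra, together with the dimmer Il20ra and Il17rc. In each of these 7 genes all GFP-positive arrays lay below all GFP-negative arrays, and among the 35 measured genes Il2ra alone had the opposite separation. In Il20ra and Il17rc the nearest arrays of the groups almost met (limma unadjusted p = 0.255 and 0.557). The groups also differed in markers of several blood lineages. GFP-positive arrays lay above all GFP-negative arrays in 6 of 7 erythroid markers, 5 of 5 megakaryocyte markers and 5 of 9 B and plasma cell markers, where 5.89% of all genes did, with median fold changes of 2.11, 2.09 and 2.24. The summed intensity of the megakaryocyte list was between 6242 and 7907 in GFP-positive arrays and between 1331 and 2808 in GFP-negative arrays, and that of the B and plasma cell list between 4045 and 10820 in GFP-positive arrays and between 1186 and 2614 in GFP-negative arrays. GFP-positive arrays also lay above all GFP-negative arrays in 5 of 9 mast cell and basophil markers, or 55.6%. They lay below in 1, or 11.1%, which was Ms4a2 at -1.37 ± 0.44. Of 10 monocyte and macrophage markers 8 had positive fold changes, with a median of 1.23. GFP-positive arrays lay above all GFP-negative arrays in 4 of them, or 40%, and below in 1, or 10%. Over all genes these shares were 5.89% and 5.51%. The lower marker was Csf1r, a receptor of these cells named after its values were seen, at -2.20 ± 0.40. The part of these lineages in the receptor values was not tested.

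The 7 lower receptors were 20% of the measured receptors, where 5.51% of all genes were separated in that direction, and Il2ra was 2.86%, where 5.89% of all genes were. In either direction 8 of 35 receptors were separated, or 22.9%, against 11.4% of all genes. No receptor passed limma over all genes. At an adjusted p under 0.05, 0 of 35 receptors were called, and 0% of all genes were. The smallest adjusted p among the receptors was 0.608 by limma.

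Limma gave an unadjusted p under 0.05 to 4 receptors that lay lower, Il1r1, Il18rap, Il4ra and Il21r, and to 1 that lay higher, Il2ra. These shares of 11.4% and 2.86% stand beside 3.38% of all genes lower and 3.33% higher, and together 14.3% of the receptors stand beside 6.71% of all genes. The count of 5 rested on single arrays: it was 3 without GFP-positive replicate 1, 1 without GFP-positive replicate 2, 3 without GFP-negative replicate 1 and 0 without GFP-negative replicate 2. Over all 35 receptors 15 fold changes were positive and 20 negative. Their median was -0.08, against 0.01 over all genes, and on omission of single arrays it was -0.23 without GFP-positive replicate 1, 0.0209 without GFP-positive replicate 3 and 0.0456 without GFP-negative replicate 2. The genes were chosen by name with earlier results of these data known, so the counts describe the receptors and are no test of them as a set.

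**Figure D1:**
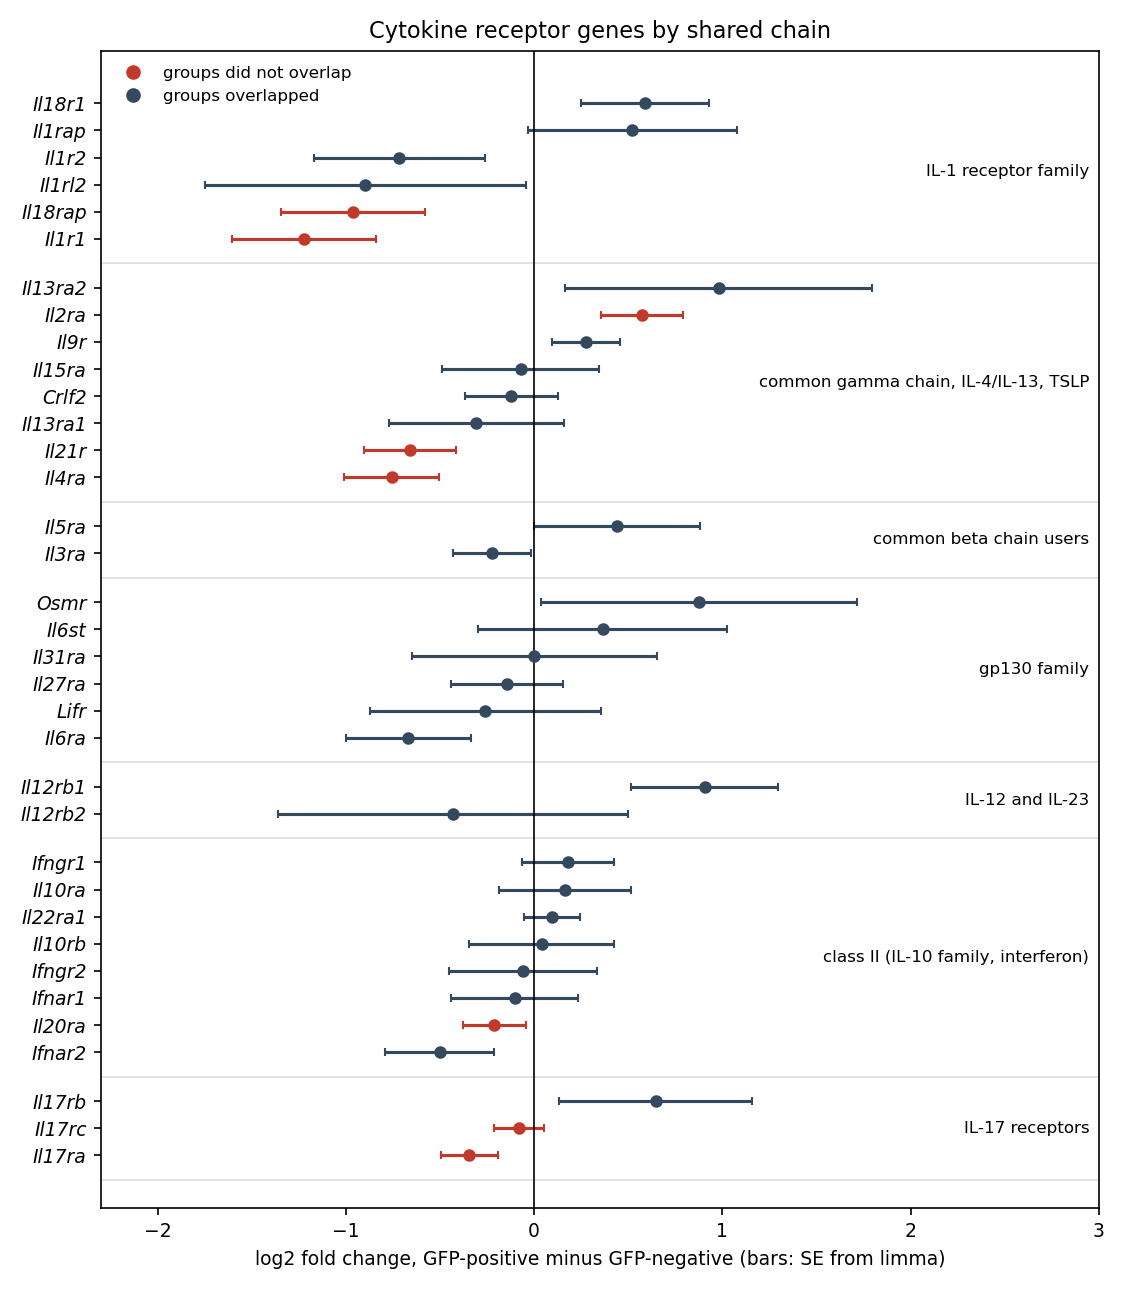
Log2 fold change of each of the 35 measured receptor genes, GFP-positive minus GFP-negative, with the standard error from limma (n = 3 arrays per group), grouped by shared chain. Red points mark the 8 genes whose groups did not overlap: 7 lie left of 0 and Il2ra lies right of it, while the class II receptors stay between -0.50 and 0.18.

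The IL-1 receptor family had a median of -0.81 over 6 measured genes, with 4 negative and 2 positive. The median was -0.47 with the mean of all probe sets of a gene and -0.22 with a filter on dim genes, which leaves out Il1r2 and Il1rl2. Il1r1, the signalling receptor for IL-1, was at 9.50, 8.40 and 8.92 in GFP-positive arrays, against 10.25, 10.64 and 9.59 in GFP-negative arrays. Every GFP-positive array lay below every GFP-negative one, though GFP-positive replicate 1 and GFP-negative replicate 3 nearly met. The fold change was -1.22 ± 0.38 (SE, n = 3 per group; limma unadjusted p = 0.019, adjusted p = 0.608), the most negative among the receptors. The two-sided exact permutation p was 0.1, the smallest that 3 arrays against 3 can give, and the same holds for each of the 8 separated receptors. Il18rap, the accessory chain that the IL-18 receptor needs to signal, was at 8.70, 7.97 and 9.04 in GFP-positive arrays, against 9.27, 10.14 and 9.18 in GFP-negative arrays. Here too the groups were apart, by the narrow gap between GFP-positive replicate 3 and GFP-negative replicate 3. Its fold change was -0.96 ± 0.38 (SE; limma unadjusted p = 0.0458, adjusted p = 0.737).

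On the probe sets that stood for them, the partner chains of both receptors did not share this direction. Il1rap, the accessory chain shared by the receptors for IL-1, IL-33 and IL-36, was at 8.85, 7.72 and 7.47 in GFP-positive arrays, against 8.49, 6.88 and 7.10 in GFP-negative arrays, a fold change of 0.52 ± 0.55 (SE). Its groups overlapped, and the female replicate 1 was the high array in both of them. The difference was 0.36 between the female arrays and 0.60 between the male means. With sex as a covariate the limma unadjusted p was 0.0284, against 0.382 without it, and the adjusted p was 0.583. The further Il1rap probe sets, all of lower mean, lay between -0.40 and 0.21, and the mean of all its probe sets gave 0.08. Il18r1, the chain that binds IL-18, was at 9.03, 8.33 and 7.79 in GFP-positive arrays, against 7.84, 7.54 and 8.0 in GFP-negative arrays, a fold change of 0.59 ± 0.34. GFP-positive replicates 1 and 2 lay above all GFP-negative arrays and replicate 3 did not. The decoy receptor Il1r2, which binds IL-1 without signalling, was at -0.72 ± 0.45 with wide scatter in GFP-negative arrays, from 4.58 to 6.21. Il1rl2, the receptor for IL-36, was at 6.33, 4.13 and 3.88 in GFP-positive arrays, against 5.91, 4.40 and 6.73 in GFP-negative arrays, so its arrays spread more within the groups than between them (-0.90 ± 0.85).

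Il1r2, Il1r1, Il1rl2, Il1rl1, Il18r1 and Il18rap are consecutive protein-coding genes on mouse chromosome 1 in the RefSeq annotation of GRCm38.p6. Within that cluster 4 measured genes had negative fold changes and Il18r1, between its unmeasured neighbour Il1rl1 and Il18rap, had a positive one. The windows around the starts of the separated genes of the cluster, from 250 bases before to 50 bases after the start, are shown from RefSeq to let the sequences be compared. Il1r1 has 2 starts in the table, and the first listed is given. Both are on the plus strand, at chr1:40224830-40225129 for Il1r1 and chr1:40515112-40515411 for Il18rap. Capitals mark matches on either strand to the RBPJ motif TGGGAA, through which Notch acts, to the STAT motif TTCNNNGAA, or to the N box CACNAG and E box CACGTG, which Hes-type repressors and other basic helix-loop-helix proteins can bind.
Il1r1: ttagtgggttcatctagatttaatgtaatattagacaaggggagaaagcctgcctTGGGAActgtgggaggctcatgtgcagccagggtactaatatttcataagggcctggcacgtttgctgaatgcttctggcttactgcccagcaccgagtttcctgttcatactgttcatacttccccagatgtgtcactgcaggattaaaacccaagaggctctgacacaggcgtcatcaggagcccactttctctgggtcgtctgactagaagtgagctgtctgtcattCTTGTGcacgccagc
Il18rap: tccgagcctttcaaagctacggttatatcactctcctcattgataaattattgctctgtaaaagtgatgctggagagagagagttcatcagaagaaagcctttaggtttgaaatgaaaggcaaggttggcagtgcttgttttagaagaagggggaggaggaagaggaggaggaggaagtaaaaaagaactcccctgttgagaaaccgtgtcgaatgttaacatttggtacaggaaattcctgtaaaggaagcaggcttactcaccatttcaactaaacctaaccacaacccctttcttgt
The Il1r1 window held 1 match to the RBPJ motif, 1 to the N box and 0 to the STAT motif and the E box, and that of Il18rap held 0 matches to any of the 4. Among all 32851 windows in the table, 25.6% held an RBPJ match, 8.30% a STAT match, 42.5% an N box and 7.15% an E box. Among the 41 windows of the receptor genes, which cover 34 of the 39 genes, 12 held an RBPJ match, 6 a STAT match, 20 an N box and 2 an E box. A match is a description of letters in the window.

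Among the receptors of the common gamma chain and the related receptors for IL-4, IL-13 and TSLP, 8 genes were measured, 5 negative and 3 positive, with a median of -0.10. Il4ra, the chain that binds IL-4 and also serves the IL-13 receptor, was at 9.31, 8.83 and 9.19 in GFP-positive arrays, against 9.43, 10.02 and 10.15 in GFP-negative arrays. The groups were apart, with the gap set by the female arrays. The fold change was -0.76 ± 0.25 (SE, n = 3 per group; limma unadjusted p = 0.024, adjusted p = 0.64). Il21r, the receptor for IL-21, was at 8.72, 9.35 and 9.11 in GFP-positive arrays, against 9.44, 10.05 and 9.66 in GFP-negative arrays. All 3 GFP-positive arrays again lay below the others, at -0.66 ± 0.24 (limma unadjusted p = 0.036, adjusted p = 0.698), and the female difference of -0.72 was close to the male one of -0.63. For Il4ra these differences were -0.12 between the female arrays and -1.08 between the male means.

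Il4ra and Il21r are neighbours on chromosome 7 in the same annotation, and their start windows are shown for that reason, with capitals for the same motifs. Both are on the plus strand, at chr7:125552021-125552320 for Il4ra and chr7:125603179-125603478 for Il21r.
Il4ra: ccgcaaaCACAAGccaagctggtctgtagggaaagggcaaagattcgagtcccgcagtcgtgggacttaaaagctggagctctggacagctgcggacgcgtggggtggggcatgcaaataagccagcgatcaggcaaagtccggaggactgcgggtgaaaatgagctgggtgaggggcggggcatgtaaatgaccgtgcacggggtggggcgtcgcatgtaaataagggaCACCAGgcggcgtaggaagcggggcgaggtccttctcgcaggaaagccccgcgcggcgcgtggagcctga
Il21r: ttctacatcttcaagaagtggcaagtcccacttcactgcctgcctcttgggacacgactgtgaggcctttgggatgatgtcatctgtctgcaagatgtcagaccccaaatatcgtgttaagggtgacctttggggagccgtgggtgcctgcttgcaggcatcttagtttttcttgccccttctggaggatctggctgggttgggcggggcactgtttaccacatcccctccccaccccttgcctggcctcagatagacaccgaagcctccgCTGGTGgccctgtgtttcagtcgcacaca
The Il4ra window held 2 matches to the N box and that of Il21r held 1, with 0 matches to the RBPJ, STAT and E box motifs in either. The GC content was 62% for Il4ra and 56% for Il21r, against 49.3% for Il1r1 and 42.3% for Il18rap.

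Il2ra, the high-affinity chain of the IL-2 receptor, was the exception in direction, at 4.27, 4.93 and 4.40 in GFP-positive arrays, against 4.09, 3.87 and 3.91 in GFP-negative arrays. The groups were apart at 0.57 ± 0.22 (SE; limma unadjusted p = 0.038, adjusted p = 0.707), on a probe set whose mean lay below the guide to background. Of the markers of T and NK cells, which carry this chain when activated, 7 of 8 measured genes had positive fold changes, with a median of 0.24. GFP-positive arrays lay above all GFP-negative arrays in 2 of them, or 25% beside 5.89% of all genes. These were Gzma at 3.17 ± 0.33 and Cd3d at 0.23 ± 0.15, while Gzmb at 2.26 ± 0.94 overlapped. The summed intensity of the list was 2085, 3581 and 3491 in GFP-positive arrays, against 2654, 2569 and 2690 in GFP-negative arrays. Most of that sum in every array came from Nkg7, the negative gene of the list, with a fold change of -0.11 ± 0.22. The part of T and NK cells in the Il2ra value was not tested. Il9r, the IL-9 receptor of mast cells and T cells, was at 0.28 ± 0.18 and overlapped between the groups. Il15ra, which presents IL-15 to neighbouring cells, was at 8.25, 7.49 and 7.75 in GFP-positive arrays, against 7.10, 8.03 and 8.59 in GFP-negative arrays, a fold change of -0.07 ± 0.42 with no separation.

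Crlf2, the TSLP receptor, differed little, at 10.86, 10.84 and 10.08 in GFP-positive arrays, against 10.81, 10.64 and 10.69 in GFP-negative arrays (-0.12 ± 0.25). GFP-positive replicate 3 was the only array that stood away from the rest. The IL-13 receptor chains differed from each other. Il13ra1, the signalling partner of Il4ra, was at -0.31 ± 0.46. Il13ra2, a decoy for IL-13, was at 9.28, 6.24 and 6.43 in GFP-positive arrays, with replicate 1 far above the rest, against 6.22, 6.40 and 6.39 in GFP-negative arrays. Its fold change of 0.98 ± 0.81 came from that single array, and without it the fold change was -0.00042.

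Of the chains that use the common beta chain, Il3ra, the IL-3 receptor of early progenitors, was at 6.69, 6.37 and 6.78 in GFP-positive arrays, against 6.55, 6.87 and 7.08 in GFP-negative arrays. The groups overlapped, at -0.22 ± 0.21 (SE). Il5ra, the receptor of eosinophils and their precursors, was at 5.00, 6.40 and 4.80 in GFP-positive arrays, against 5.19, 4.88 and 4.80 in GFP-negative arrays. Only GFP-positive replicate 2 stood high. Its fold change was 0.44 ± 0.44, and without that array -0.0595. Eosinophil markers, of which 4 were measured, had a median of -0.12, and their summed intensity was 323, 321 and 478 in GFP-positive arrays, against 473, 384 and 326 in GFP-negative arrays.

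The gp130 family had 6 measured genes, 3 positive and 3 negative, with a median of -0.07, and none was separated between the groups. Il6st, which encodes gp130 itself, was at 12.19, 10.56 and 9.59 in GFP-positive arrays, against 9.97, 10.53 and 10.74 in GFP-negative arrays. GFP-positive replicate 1 was the highest array by 1.45 on the log2 scale, and replicate 3 the lowest. The fold change was 0.36 ± 0.66 (SE; limma adjusted p = 0.979), and it was -0.34 without replicate 1. Osmr, the oncostatin M receptor of stromal cells, was at 7.05, 4.25 and 3.82 in GFP-positive arrays, against 4.10, 4.18 and 4.21 in GFP-negative arrays. Replicate 1 stood 2.80 above every other array while the other 5 lay at or below the guide to background, and the fold change of 0.88 ± 0.84 became -0.13 without it. Lifr, the receptor for leukaemia inhibitory factor, was at 6.57, 5.39 and 5.68 in GFP-positive arrays, against 5.10, 7.32 and 6.01 in GFP-negative arrays (-0.26 ± 0.61). High arrays occurred in both groups, GFP-positive replicate 1 and GFP-negative replicate 2.

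GFP-positive replicate 1 was also the array in which endothelial and stromal markers stood high. Of the 10 markers measured 9 were highest in it, and the list's median over the GFP-negative mean was 2.88, 0.05 and -0.005 in GFP-positive replicates 1, 2 and 3. The summed intensity was 14646, 3364 and 1940 in GFP-positive arrays, against 3465, 3013 and 3112 in GFP-negative arrays. Cdh5, an endothelial cadherin, was at 9.83, 4.91 and 4.65 in GFP-positive arrays, against 4.50, 5.01 and 4.29 in GFP-negative arrays. Cxcl12, alone in the list, was separated and high in GFP-positive replicates 2 and 3 as well. It was at 12.52, 9.27 and 8.33 in GFP-positive arrays, against 5.34, 5.52 and 5.38 in GFP-negative arrays. The part of this signal in the gp130 family values was not tested, and Il13ra2 followed the same array. Of all genes 1.96% stood more than 1 above all other arrays in GFP-positive replicate 1, while in the other arrays 0.621% to 1.39% did. Among the receptors 3 did so in that array: Il6st, Osmr and Il13ra2.

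**Figure D2:**
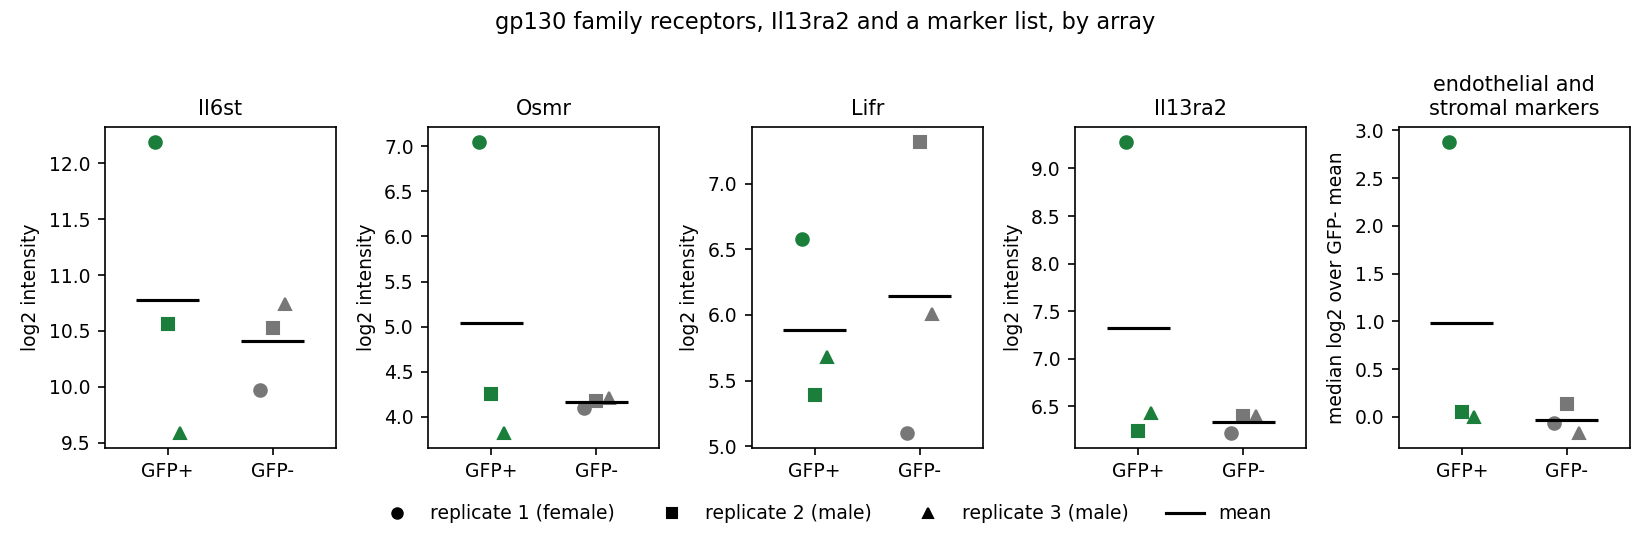
Log2 intensity of Il6st, Osmr, Lifr and Il13ra2 in each array, and the median of 10 endothelial and stromal markers relative to their GFP-negative means (log2). Green symbols are GFP-positive and grey symbols GFP-negative arrays, symbol shapes give the replicate, bars are group means, and each panel has its own axis. In Il6st, Osmr, Il13ra2 and the marker list the circle of GFP-positive replicate 1 is the highest point, while in Lifr GFP-negative replicate 2 is higher.

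Il6ra, the chain that binds IL-6 and pairs with gp130, was at 9.09, 9.55 and 9.62 in GFP-positive arrays, against 10.15, 10.64 and 9.47 in GFP-negative arrays. GFP-negative replicate 3 lay among the GFP-positive values, and the fold change was -0.67 ± 0.33 (SE; limma unadjusted p = 0.093, adjusted p = 0.843). A further Il6ra probe set of lower mean, 7.63, was at 0.06 ± 0.52, and the mean of its probe sets gave -0.30. Il27ra, the IL-27 receptor, was at -0.15 ± 0.30. Il31ra, which pairs with Osmr, was at 0.001 ± 0.65, and its value of 7.55 in GFP-negative replicate 1 stood more than 1 above all other arrays.

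The IL-12 receptor is built from Il12rb1, which the IL-23 receptor shares, and Il12rb2. Il12rb1 was at 8.06, 7.80 and 6.88 in GFP-positive arrays, against 6.32, 6.49 and 7.22 in GFP-negative arrays. GFP-positive replicates 1 and 2 lay above all GFP-negative arrays, and replicate 3 lay inside their range. The fold change was 0.91 ± 0.39 (SE; limma unadjusted p = 0.0594, adjusted p = 0.769). Il12rb2 was at 7.71, 9.75 and 9.32 in GFP-positive arrays, against 10.29, 10.31 and 7.48 in GFP-negative arrays, at -0.43 ± 0.93. Both groups held a low array, GFP-positive replicate 1 and GFP-negative replicate 3, and the difference was -2.58 between the female arrays and 0.65 between the male means.

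The 8 class II receptors lay between -0.50 and 0.18 with a median of -0.01 on the probe sets that stood for them, while further probe sets of Ifnar1 and Ifnar2 lay far outside that range, as described with the probe sets. Ifnar2, a chain of the type I interferon receptor, was at 11.80, 10.85 and 11.61 in GFP-positive arrays, against 11.73, 12.16 and 11.87 in GFP-negative arrays, a fold change of -0.50 ± 0.29 (SE; limma adjusted p = 0.884). Only GFP-positive replicate 1 lay within the GFP-negative range. Ifnar1, its partner, was at -0.10 ± 0.34. The interferon gamma receptor chains Ifngr1 and Ifngr2 were at 0.18 ± 0.24 and -0.06 ± 0.39. Il10ra, which binds IL-10, and Il10rb, the chain it shares with other members of the family, were at 0.16 ± 0.35 and 0.04 ± 0.38. Il22ra1, an IL-22 receptor chain of epithelial cells, was at 0.09 ± 0.15, with all arrays between 5.75 and 6.06. Il20ra, also known from skin and other epithelia, was at 4.77, 4.46 and 4.77 in GFP-positive arrays, against 5.04, 4.78 and 4.80 in GFP-negative arrays. Its groups did not overlap, yet the nearest values differed only in the second decimal, and its fold change was -0.21 ± 0.17 (limma unadjusted p = 0.255).

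In the IL-17 receptor family Il17ra, the chain shared across the family, was at 12.27, 12.21 and 12.36 in GFP-positive arrays, against 12.47, 12.65 and 12.75 in GFP-negative arrays. The groups were apart, and the difference was small and even, at -0.34 ± 0.15 (SE; limma unadjusted p = 0.0627, adjusted p = 0.778), with -0.20 between the female arrays and -0.42 between the male means. Il17rc, its partner for IL-17A and IL-17F, was at 7.28, 7.22 and 7.17 in GFP-positive arrays, against 7.34, 7.30 and 7.28 in GFP-negative arrays. This separation was a near tie, with GFP-positive replicate 1 at 7.2805 and GFP-negative replicate 3 at 7.2814. The fold change was -0.08 ± 0.13 (limma unadjusted p = 0.557). Il17rb, the chain for IL-25, was at 7.05, 8.61 and 6.75 in GFP-positive arrays, against 7.20, 6.58 and 6.68 in GFP-negative arrays, and only GFP-positive replicate 2 stood high (0.65 ± 0.51, and 0.0747 without that array).

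**Figure D3:**
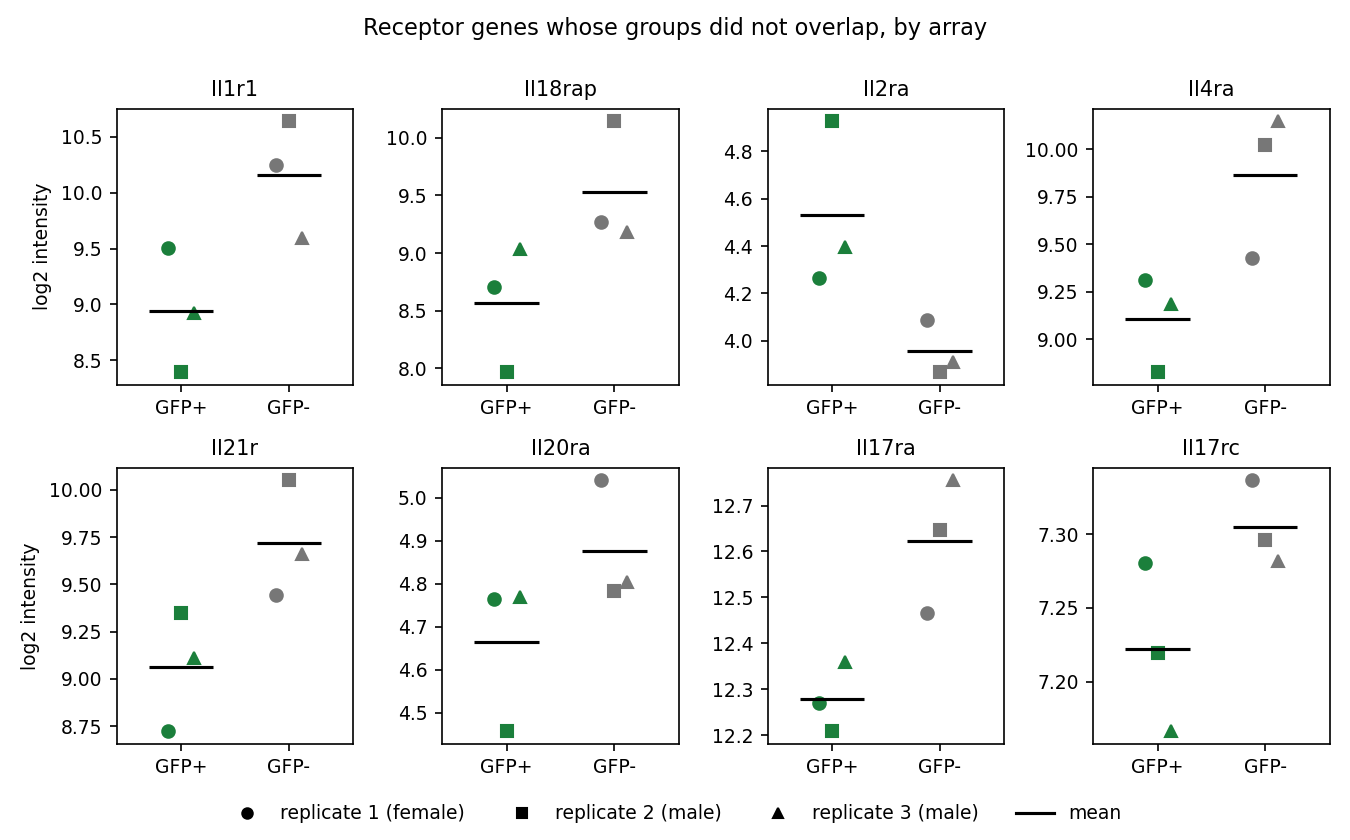
Log2 intensity by array of the 8 receptor genes whose groups did not overlap, GFP-positive in green on the left and GFP-negative in grey on the right, with bars at the group means and symbols for the replicate. Axes differ between panels and do not start at 0. In each of the 8 genes the gap between the nearest arrays of the groups is smaller than the range within either group.

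Several probe sets of a gene gave a further look at 20 of the 35 receptors, through 33 further probe sets of lower mean. Of these, 19 had the sign of the probe set that stood for the gene and 14 the other sign. Fitted with each of the 34958 probe sets as a feature, the limma unadjusted p was under 0.05 for 3 further probe sets, 1 of them higher and 2 lower. In that fit 6.58% of all probe sets had an unadjusted p under 0.05 and 0 passed the adjusted threshold. The same 3 of the 33 were those whose groups did not overlap, a smaller share than the 11.5% of all probe sets that were separated. They are therefore described as single values.

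The 4 lower receptors with the smallest p differed in how far their further probe sets followed. Il21r has 1 probe set. The other probe sets of Il4ra were at -0.24 and -0.12, that of Il18rap at -0.15 and that of Il1r1 at -0.09, the last on a probe set with a mean of 2.53. The second Il17ra probe set was at -0.39 ± 0.26, near the value of the first, and the second Il2ra probe set at 0.29 ± 0.19. All 4 probe sets of Il6st were highest in GFP-positive replicate 1. One Lifr probe set was at 8.13, 4.46 and 3.88 in GFP-positive arrays, against 4.35, 6.76 and 5.20 in GFP-negative arrays.

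The separated further probe sets belonged to Ifnar1, Ifnar2 and Il15ra. One Ifnar1 probe set was at 7.46, 8.89 and 7.84 in GFP-positive arrays, against 5.94, 5.88 and 6.28 in GFP-negative arrays. Its groups were well apart, at 2.03 ± 0.39 (SE; limma adjusted p = 0.449 over all probe sets), while the probe set that stood for the gene was at -0.10. A second Ifnar2 probe set was at 6.60, 7.96 and 7.30 in GFP-positive arrays, against 8.77, 8.33 and 8.83 in GFP-negative arrays, at -1.36 ± 0.37 (limma adjusted p = 0.576), in the direction of the first. A second Il15ra probe set was at 5.70, 6.21 and 6.22 in GFP-positive arrays, against 6.60, 7.23 and 7.12 in GFP-negative arrays, at -0.94 ± 0.25 (limma adjusted p = 0.576). Which transcripts these probe sets read was not tested.

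**Figure D4:**
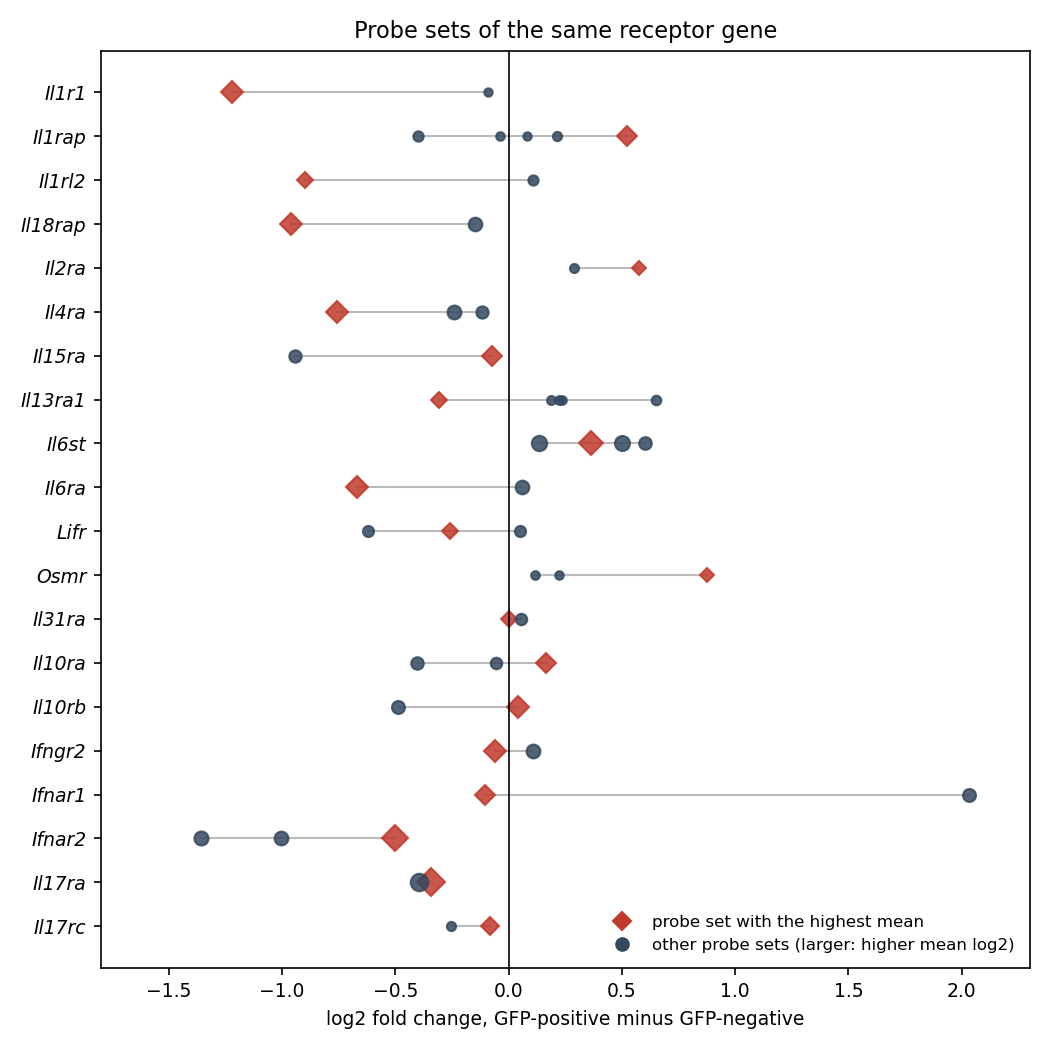
Log2 fold change, GFP-positive minus GFP-negative, of every probe set of the 20 receptor genes with several. Red diamonds are the probe sets with the highest mean and dark circles the others, drawn larger where the mean log2 intensity is higher. The probe sets of Il6st, Il17ra and Il4ra keep 1 sign, while those of Ifnar1 run from -0.10 to 2.03.

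Among the 10 adjacent pairs of receptor genes in which both were measured, 5 pairs had fold changes of the same sign and 5 of opposite sign. Il4ra and Il21r and the run of Il1r2, Il1r1 and Il1rl2 shared a sign, and Osmr at 0.88 stood beside Lifr at -0.26.

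Shared chains and partners outside the 35 receptors were looked at as a list of 11, of which 9 were measured. By limma 1 of them, or 11.1%, had an unadjusted p under 0.05, beside 6.71% of all genes, and 4 were separated, or 44.4%, beside 11.4% of all genes. The first was Epor, the erythropoietin receptor, at 7.27, 8.24 and 7.22 in GFP-positive arrays, against 6.44, 6.66 and 6.88 in GFP-negative arrays (0.92 ± 0.32, limma adjusted p = 0.666). Of the erythroid markers, a list that includes Epor, 6 of 7 measured genes were separated with GFP-positive arrays higher, or 85.7% beside 5.89% of all genes, with a summed intensity between 4571 and 7051 in GFP-positive arrays and between 813 and 1036 in GFP-negative arrays. Il2rb, the signalling chain shared by IL-2 and IL-15, was at 6.04, 7.95 and 5.40 in GFP-positive arrays, against 5.10, 4.90 and 5.03 in GFP-negative arrays. It was separated in the direction of Il2ra, at 1.45 ± 0.64 (limma adjusted p = 0.78). Il7r, which pairs with Crlf2 for TSLP, was also separated, with GFP-positive arrays at 9.11 or above and GFP-negative arrays at 8.91, 9.05 and 5.63. The low GFP-negative replicate 3 widened its fold change of 1.78 ± 0.95 (limma unadjusted p = 0.11). Csf3r, the receptor for granulocyte colony-stimulating factor, was separated with GFP-positive arrays lower, at -0.71 ± 0.30 (limma adjusted p = 0.759). The common beta chain Csf2rb was at -0.52 ± 0.40 and overlapped. The part of erythroid cells in the Epor value was not tested.

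Downstream of the chains, 10 of 11 Janus kinases and STATs were measured and 0 had an unadjusted p under 0.05 by limma, with 8 negative and a median of -0.13. Jak1, the kinase of gp130 and of the interferon receptors, was at 0.07 ± 0.28, and Stat3 at -0.15 ± 0.21. In the list for IL-1 and IL-17 signalling, 12 of 14 were measured, and 3 lower ones and 0 higher ones had an unadjusted p under 0.05 by limma, which is 25% lower beside 3.38% of all genes. The median of the 12 was -0.45. Myd88, the adaptor of IL-1 and Toll-like receptors, was at 7.52, 8.69 and 8.05 in GFP-positive arrays, against 8.91, 8.71 and 9.87 in GFP-negative arrays (-1.08 ± 0.42, limma adjusted p = 0.737). Irak1, the kinase that Myd88 recruits, was at 8.99, 9.47 and 9.44 in GFP-positive arrays, against 10.13, 9.87 and 9.58 in GFP-negative arrays (-0.56 ± 0.22, limma adjusted p = 0.737). Tollip, an inhibitor of the pathway, was at 8.92, 9.09 and 8.68 in GFP-positive arrays, against 9.56, 9.47 and 9.31 in GFP-negative arrays (-0.55 ± 0.17, limma adjusted p = 0.611). In these 3 genes the groups were apart in the direction of Il1r1 and Il18rap, and the adaptor and kinase lay on the same side as the inhibitor.

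Of 32 ligands 29 were measured, and by limma 3 had an unadjusted p under 0.05, 2 of them higher and 1 lower. That is 10.3%, near the 6.71% of all genes, and the single ligands are given as values. The lower one was Il12a, a subunit of IL-12, at 10.58, 9.21 and 8.46 in GFP-positive arrays, against 11.22, 11.74 and 10.78 in GFP-negative arrays (-1.83 ± 0.57, limma adjusted p = 0.605). Its groups were apart, in the direction opposite to the receptor chain Il12rb1 and with the sign of Il12rb2, at -0.43 ± 0.93. Ctf1, cardiotrophin of the gp130 family, was higher at 0.84 ± 0.28 (limma adjusted p = 0.64), and Il4 at 0.65 ± 0.25 (limma adjusted p = 0.726), although the arrays of Il4 overlapped between the groups. Il4 thus lay on the other side from Il4ra, while Il21, separated at -0.34 ± 0.15 on low levels, lay on the side of Il21r. These pairs were named after their values were seen, and a relation of ligands to receptors was not tested.

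The female and male arrays were also set against each other. In 9 of the 35 receptors, or 25.7%, the female pair differed one way and both male GFP-positive arrays lay beyond both male GFP-negative arrays the other way, where 18.3% of all genes did so. Lifr was among them, with a difference of 1.48 between the female arrays and of -1.13 between the male means. Il15ra was another, at 1.15 between the female arrays and -0.68 between the male means. In limma 0 genes passed for an interaction of GFP and sex, and 7.24% of all genes had an unadjusted p under 0.05 for it.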

How the data were processed

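RNA was amplified, biotin-labelled and hybridised to 1-colour Affymetrix arrays, per the labels' protocols. The values the authors deposited are linear intensities of the probe sets of each array, and the submitters' processing notes name RMA, which corrects background, quantile-normalises and summarises probes. The version of RMA is not given in the sources used here. Its background step compresses differences among dim probe sets, and quantile normalisation removes a shift common to most genes. Array medians of the deposited intensities lay between 74 and 78.5, and log2 was taken with no pseudocount.

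Of 45101 probe sets, 34958 carried 1 gene symbol in the platform annotation, 932 carried several and 9211 none, and the first kind gave 18194 genes with no filter on dim ones. Groups were compared with limma 3.58.1 in R 4.3.3 (lmFit, eBayes, no covariate), adjusted by Benjamini-Hochberg over all genes at 0.05, after tests on simulated data. For single genes an exact permutation test, two-sided, was added. No depth exists for arrays, and their number limits the precision.

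Every receptor is accounted for, and values in each array are given where groups did not overlap, where the unadjusted p was under 0.05, for the member with the highest mean in each family, and for further receptors chosen after their values were seen. Genes of the pathway lists were named where they were separated or had an unadjusted p under 0.05, at most 3 per list. Il7r, Csf2rb, Jak1, Stat3 and Il21 were added after their values were seen. The receptors and lists were chosen with earlier results of these data known. As alternatives, probe sets of a gene were averaged, and the fit was repeated with a filter at the 40th percentile, an intensity trend or robust prior, array weights, repeated quantile or median normalisation, a pseudocount of 16, a replicate block, a term for sex, male arrays alone, a threshold of 0.1 and the omission of each array. The fit over probe sets and the interaction of GFP with sex were added after seeing the data. Promoter windows are RefSeq sequences of GRCm38.p6, used with no coordinates of the arrays. The mast cell and basophil, neutrophil and stem cell lists had median fold changes of 0.87, 0.11 and 0.002. In the neutrophil list 1 of 8 genes was separated, Elane at 4.23 ± 0.95. In the stem cell list 4 of 9 were. Hoxb5 at 2.70 ± 0.40 and Procr at 0.77 ± 0.25 lay higher in GFP-positive arrays, and Flt3 at -0.89 ± 0.38 and Cd34 at -0.63 ± 0.17 lower. These shares of 12.5% and 44.4% stand beside 11.4% of all genes. The part of such differences in the receptor values was not tested.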

Additional observations from a re-analysis of the deposited data

Results flagged for a closer look

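In 9 receptors the female arrays differed in one direction while both male GFP-positive arrays lay beyond both male GFP-negative arrays in the other, which made 25.7% of the receptors against 18.3% of all genes. The female differences, GFP-positive minus GFP-negative, were 0.42 for Il1rl2, 1.15 for Il15ra, 0.18 for Il13ra1, 0.14 for Il3ra, 1.48 for Lifr, -1.12 for Il31ra, 0.78 for Ifnar1, 0.0647 for Ifnar2 and -0.16 for Il17rb. The male differences for the same genes were -1.56, -0.68, -0.55, -0.40, -1.13, 0.56, -0.55, -0.78 and 1.05. The difference between the sexes was tested for all genes as an interaction in limma: 0 of 18194 genes passed, and 1317 had an unadjusted p under 0.05, or 7.24%. Among the receptors 6 had an unadjusted p under 0.05: Il15ra, Lifr and Il31ra of the 9, and Il13ra2, Osmr and Il6st outside them. In Il13ra2, Osmr and Il6st GFP-positive replicate 1, a female array, stood far above the rest. The smallest adjusted p for the interaction among the receptors was 0.295 by limma, for Il13ra2, and those of the 9 genes lay between 0.561 and 0.878. Each group holds 1 female array, so sex, replicate number and the single array cannot be told apart.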

How the results depend on the processing

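Over 17 alternatives 0 receptors passed the adjusted threshold, and the smallest adjusted p among them was 0.442. The filter on dim genes left 24 of the 35 receptors, without Il2ra and Il20ra. The 8 separated receptors kept their sign in each alternative that measured them, which in most alternatives follows from how they were picked. Where the groups do not overlap, omitting or weighting arrays cannot turn the sign, so this is no support for them. Of all 35 receptors 20 kept their sign. Same-numbered arrays correlated at 0.12, 0.05 and 0.09 in their deviations from the group means, and each correlated best with its own number, a hint from the data and not from the design. With the replicate block 2 receptors had an unadjusted p under 0.05. Repeated quantile normalisation gave 3, and omission of single arrays 0 to 6. Separated receptors were 19 in the male arrays alone, where 36.7% of all genes were separated, and 9 to 14 on omission of single arrays, where 18.7% to 23.6% of all genes were. Genes past the threshold were 1 with the filter on dim genes, 1 at a threshold of 0.1 and 0 to 5 on omission of single arrays. Family medians moved to -0.17 for the IL-17 receptors with the mean of probe sets, to -0.22 for the common beta chain users with the filter, which left Il3ra alone, and to -0.24 for the class II receptors in male arrays, with a range of -0.17 to 0.11 on omission of single arrays. The sign of single fold changes turned with the mean of probe sets for Il13ra1 (0.20), Il10ra (-0.10), Il10rb (-0.22), Ifngr2 (0.0228) and Ifnar1 (0.97). It turned with array weights for Il6st (-0.0534), Il31ra (-0.0839), Il10ra (-0.0871), Il10rb (-0.15) and Ifngr2 (0.0398). Il31ra was at -0.0243 with repeated quantile normalisation, -0.0533 with equal array medians and -0.052 with a pseudocount of 16, and Il10rb at -0.0148 with equal medians. In male arrays Il13ra2 was at -0.0608, Il6st at -0.56, Osmr at -0.16, Il12rb2 at 0.65, Il10ra at -0.13 and Il10rb at -0.30. On omission of single arrays, fold changes ranged from -0.48 to 0.27 for Il15ra, from -0.00042 to 1.52 for Il13ra2, from -0.25 to 0.13 for Crlf2, from -0.0595 to 0.74 for Il5ra, from -0.34 to 0.96 for Il6st, from -0.78 to 0.33 for Lifr, from -0.13 to 1.49 for Osmr, from -0.41 to 0.0454 for Il27ra, from -0.50 to 0.74 for Il31ra, from -1.37 to 0.18 for Il12rb2, from -0.0914 to 0.55 for Il10ra, from -0.20 to 0.36 for Il10rb, from -0.34 to 0.32 for Ifngr2 and from -0.33 to 0.17 for Ifnar1. Apart from the single arrays named, the cause was not tested.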
